A study of Danio rerio with 40 samples.

Results

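The comparison set the brains of female zebrafish homozygous for a naglu frameshift allele against those of their homozygous brothers. Members were the libraries whose labels give the genotype hom, 20 of the 40 in the series, split by the labelled sex into 12 females and 8 males. The homozygous fish carry naglu A603fs on both alleles (A603fs/A603fs) and model mucopolysaccharidosis type IIIB. The other 20 libraries came from siblings with 1 copy (A603fs/+), 7 females and 13 males. All fish were 6 months old. Each had received 10 µg of ferric citrate in 0.85% saline, or saline alone, into the peritoneum, and its brain was taken 7 days later from a head stored in RNAlater. Of the homozygous females 7 had saline and 5 iron, against 3 and 5 of the males. PolyA RNA of each whole brain was sequenced, and each library is labelled as a separate fish.

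As background, laboratory zebrafish have no fixed sex chromosome pair, and sex is read from the fish rather than from a Y-linked gene. Gonadal steroids reach the brain and act through estrogen and androgen receptors, and enzymes in the brain make or convert these steroids on site. Peptide neurons of the hypothalamus, such as kisspeptin, agouti-related peptide and oxytocin neurons, relate reproduction, feeding and social behaviour to these hormones. Loss of NAGLU, a lysosomal enzyme, stops the breakdown of heparan sulfate, and activated microglia are a known feature of the disease.

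Library totals ran from 13101544 to 29797612 counts in females and from 16384748 to 37615359 counts in males, and the median was higher in males. Levels are given as CPM, counts divided by the library total as scaled by TMM, edgeR's normalization. The labels number each fish, and 7 of the females and 3 of the males had numbers up to 40, against 5 and 5 above it. Fish number entered the model only as above 40 or not, together with treatment. A photoreceptor gene list had a mean log2 CPM above 1 in 4 female and 2 male libraries. Male 2, at 0.90, lay just under that value and near male 6 at 1.14, and the others were at -0.52 or lower. Neuron and myelin markers were high in every brain: snap25 ENSDARG00000020609, a synaptic vesicle fusion protein, had 3090 to 4090 CPM in females and 3280 to 4110 in males. mbpa, a myelin protein, had 6590 to 13300 CPM in females and 7180 to 18300 CPM in males, while microglia markers included apoeb at 348 CPM or more and p2ry12 at 4.65 CPM or less. Pituitary markers were nearly absent, with gh1, growth hormone, at 0 in 16 of the 20 libraries. The gonadal markers ddx4 and zp3 were at 0 in 18 and 19 of them.

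naglu itself had 2.74 to 6.13 CPM in females and 3.28 to 4.87 CPM in males, and 0.06 on the log2 scale (SE 0.10, edgeR adjusted p = 0.908). Transcripts with a frameshift can persist, and naglu expression is therefore no test of the genotypes labelled. A score from 50 genes that separate the genotypes, chosen each time on the other 39 libraries, ran from 0.75 to 1.23 in the 20 homozygous libraries, where 0 is heterozygous and 1 homozygous. It was -0.38 to 0.14 in 18 heterozygous libraries. The remaining 2, heterozygous female 3 and heterozygous male 8, scored 1.12 and 1.11, so their labels are in doubt. No homozygous library stood apart in this way. Heterozygous female 5 was unlike the other heterozygous females in many genes of this comparison. Of the 7 it lay farthest toward the homozygous males in 8 of the 12 genes called below. Each of the others did so in 0 or 1. Heterozygous female 5 had 18 CPM of hsd17b3 and 0.0397 CPM of agrp, against 4.5 to 10.7 and 0.885 to 4.34 CPM in the other heterozygous females. In agrp, cdkn1a (3.5 CPM) and nt5c2l1 (57.4 CPM) it lay beyond every male of both genotypes. Whether its sex label is right was not tested. Heterozygous males were not ranked in this way. Among them male 13 had 4.73 CPM of hsd17b3 and 49 CPM of dio2, against 13.7 to 29.6 and 93.9 to 274 CPM in the others. Its low agrp (0.307 CPM) and sult6b1 (5.01 CPM) went the other way. The photoreceptor list mean was 1.28 in heterozygous female 5 and 1.64 in heterozygous male 13. Heterozygous results are therefore given with and without heterozygous female 5, except for gene lists other than the ribosomal one.

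Few genes differed between homozygous females and males. In edgeR's quasi-likelihood test 7 of 18919 genes rose in females and 5 fell at an adjusted p under 0.05, here called genes, which is 0.0634% of those tested (0.037% higher and 0.0264% lower). They were the neuropeptides kiss2, agrp and nmu, the sulfotransferase sult6b1, ccdc78, si:ch211-224l10.5 and ENSDARG00000114451, all higher in females. The steroid enzyme hsd17b3, the cell cycle inhibitor cdkn1a, sp100.3, nt5c2l1 and si:dkey-1m11.6 were lower in females. Before adjustment 927 genes were higher in females and 863 lower with a p under 0.05, 9.46% of those tested. The median log2 fold change (female over male throughout) of all genes was 0.00. The sexes did not overlap at all for 4 genes, or 0.0211% of those tested. These were cdkn1a and ENSDARG00000114451, with acss3 and pdp1, which were not called (adjusted p = 0.147 and 0.142).

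The count of 12 rested on single libraries. Without female 1 or female 2 there were 20 and 39 called genes. Without males 1, 2 and 8 there were 22, 21 and 21. Without males 3, 5 and 7 there were 3, 4 and 3. All 12 genes kept their direction in each of the 20 fits that left out 1 library. Female 2, an iron fish, lay nearest the males of all 12 females in 5 of the 12 called genes, and the 39 genes called without it held all 12. igf1, dio2, greb1 and f13a1 ENSDARG00000045453 were called in that fit (adjusted p = 0.00216, 0.00213, 0.00891 and 0.00652) and not with it. Female 2 was singled out by its values in these same data, so the fit without it is no separate support for these genes. In these genes female 2 lay within the male range, with 15.3, 209, 6.55 and 3.3 CPM, as in hsd17b3 with 19.8 CPM. It lay within the male range also in nmu (2.76 CPM), sult6b1 (17.7), kiss2 (3.42), agrp (0.601), nt5c2l1 (15.0) and si:dkey-1m11.6 (24.7 CPM). In sp100.3 (1.14 CPM), si:ch211-224l10.5 (1.92 CPM) and ccdc78 (2.46 CPM) female 2 lay on the female side of every male. In ENSDARG00000114451 (0.541 CPM) and cdkn1a (1.5 CPM) it did too, as every female did, because the sexes do not overlap in these genes. Whether its sex label is right was not tested. The fish came from 5 home tanks, and the p-values measure only the spread between these fish.

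**Figure D1:**
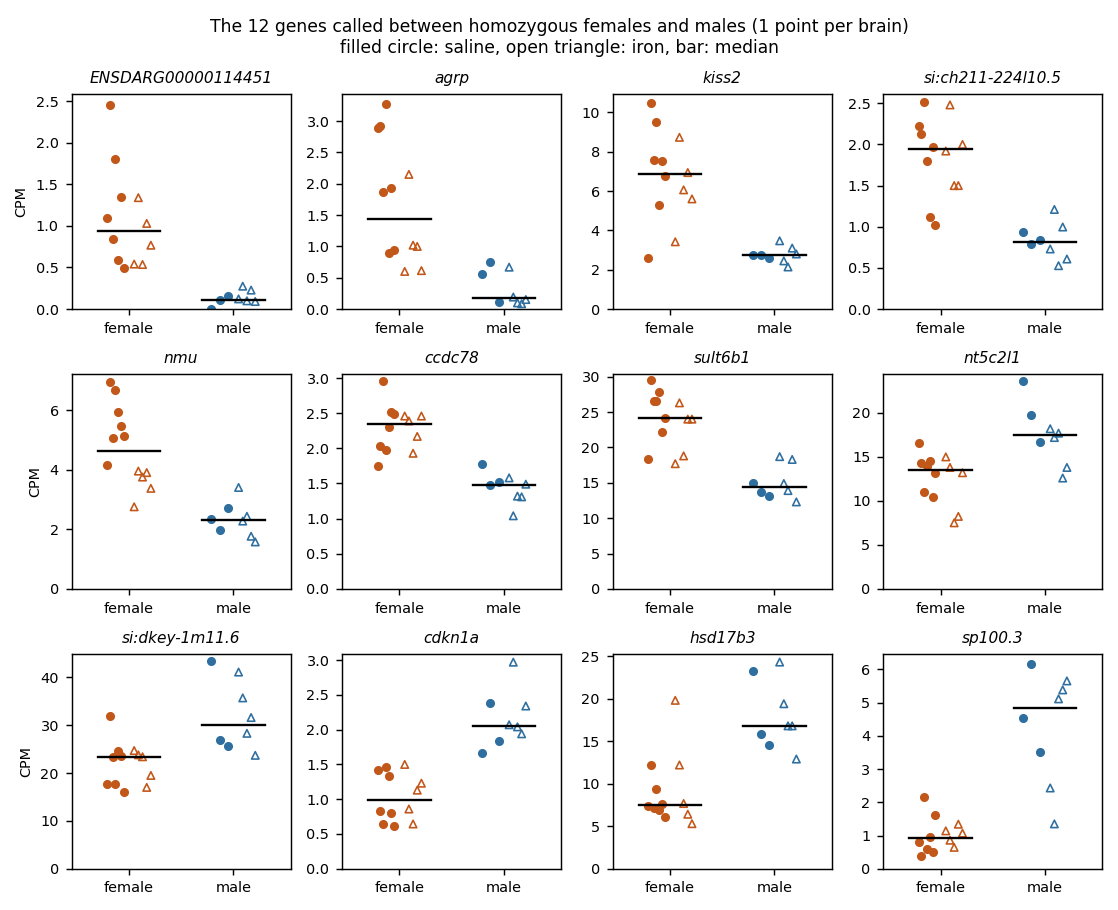
Levels of the 12 called genes in each homozygous brain, in CPM on linear axes that start at 0, females left and males right. Filled circles are saline fish, open triangles iron fish and bars the medians of each sex. The sexes do not overlap for cdkn1a and ENSDARG00000114451.

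The called gene of the steroid pathway was hsd17b3, the 17-beta-hydroxysteroid dehydrogenase that makes testosterone from androstenedione. It had 5.3 to 19.8 CPM in females with a median of 7.5, against 12.9 to 24.3 CPM in males with a median of 16.8. All but 1 female lay below the lowest male. The female that did not, female 2 at 19.8 CPM, was above 6 of the males. hsd17b3 fell by 1.1 on the log2 scale in females (SE 0.15, 2.14-fold, adjusted p = 0.00954), and it was called in all 20 fits that left out 1 library. The call was lost without the fish-number term (-0.95, adjusted p = 0.106), with sex alone (-0.99, adjusted p = 0.0578) and with all 40 libraries in 1 fit (adjusted p = 0.0549). The change was -1.27 among saline fish alone and -0.91 among iron fish alone, and neither passed alone (adjusted p = 0.0598 and 0.448). In bulk tissue such as this, fewer cells of a type and less RNA per cell cannot be told apart.

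hsd17b3 was the 1 called gene among 22 tested steroid enzymes, whose median log2 fold change was 0.03. Of 15 tested steroid receptors 0 were called and 1 was below an unadjusted p of 0.05, with a median of 0.02. esr1, the estrogen receptor alpha gene, had 5.73 to 9.45 CPM in females and 4.81 to 7.3 CPM in males. Its log2 fold change was 0.18 (SE 0.10, adjusted p = 0.611). The genes for estrogen receptor beta, esr2 ENSDARG00000034181 and esr2 ENSDARG00000016454, had log2 fold changes of -0.05 (SE 0.10) and -0.03 (SE 0.13). The androgen receptor gene ar had 11.8 to 17.5 CPM in females and 12.1 to 16.4 CPM in males, a log2 fold change of 0.02 (SE 0.07). A gene named cyp19a1, for an aromatase, had 0.24 to 0.994 CPM in females and 0.182 to 0.655 CPM in males, or at most 23 counts in a library, and 0.21 (SE 0.26, adjusted p = 0.866). The brain aromatase cyp19a1b was not matched by name and was not analysed here. Among 5 tested estrogen-responsive genes, greb1, which estrogen induces in human breast cells, had 6.55 to 13.5 CPM in females and 5.51 to 7.49 CPM in males. All females but female 2 lay above every male, yet greb1 just missed the threshold, at 0.60 on the log2 scale (SE 0.12, adjusted p = 0.0597).

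Peptides of the hypothalamus were the group with the most called genes. Of 45 tested peptide and prohormone genes kiss2 and agrp rose, 0 fell, and 40 had log2 fold changes above 0, against 9491 of all 18919 genes. The median of the list was 0.14. Before adjustment 10 genes were higher in females and 0 lower with a p under 0.05, where 4.9% and 4.56% of all genes were. The list median was 0.24 in fish numbered up to 40, 0.19 in those above 40, 0.21 after saline and 0.20 after iron. In heterozygous fish, fitted apart, it was -0.01, with 1 gene higher and 3 lower before adjustment.

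kiss2 encodes kisspeptin 2, which acts on the reproductive axis in fish. It had 2.6 to 10.5 CPM in females with a median of 6.86, against 2.14 to 3.47 CPM in males with a median of 2.75. Of the females 10 lay above every male, and the lowest 2 lay within the male range. kiss2 rose by 1.26 on the log2 scale (SE 0.21, 2.40-fold, adjusted p = 0.0209), and lost its call without male 3, 4, 5 or 7 (adjusted p up to 0.0778). Adding the clock component described below or the library total to the model also lost the call (edgeR adjusted p = 0.0707 and 0.0502). The change was 1.40 among saline fish and 1.16 among iron fish.

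agrp encodes agouti-related peptide, which raises feeding. It had 0.601 to 3.27 CPM in females with a median of 1.45, against 0.0854 to 0.758 CPM in males with a median of 0.172. In counts these were 8 to 71 per female library and 2 to 21 per male library. Of the females 10 lay above every male and of the males 6 below every female. agrp rose by 2.09 (SE 0.36, 4.26-fold, adjusted p = 0.0234). The call was lost without male 3, 4 or 7 or female 9 or 11 (adjusted p up to 0.0725). Adding the clock component or the library total also lost it (edgeR adjusted p = 0.187 and 0.0561). So did dropping the libraries high in photoreceptor genes (adjusted p = 0.232).

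nmu encodes neuromedin U, a peptide of feeding and stress control, and is not on the list. It had 2.76 to 6.95 CPM in females with a median of 4.62, against 1.58 to 3.41 CPM in males with a median of 2.32. Saline females had 4.16 to 6.95 CPM, above all 8 males, and iron females 2.76 to 3.96 CPM. nmu rose by 0.91 (SE 0.15, 1.88-fold, adjusted p = 0.0177), and lost its call without male 3, 5 or 7 (adjusted p up to 0.0725). The sex difference was 1.24 after saline and 0.68 after iron. The test of that difference did not pass (-0.54, SE 0.28, adjusted p = 1.0).

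Other peptide genes ran the same way without passing. oxt, which encodes the fish form of oxytocin, had 161 to 495 CPM in females with a median of 316, against 33.8 to 205 CPM in males with a median of 165. Its log2 fold change was 0.98 (SE 0.29, adjusted p = 0.263), and male 4 was the low library. vip and trh, for vasoactive intestinal peptide and thyrotropin-releasing hormone, had 0.37 (SE 0.11) and 0.39 (SE 0.12). npy, for neuropeptide Y, had 0.15 (SE 0.11) and crh, for corticotropin-releasing hormone, 0.23 (SE 0.10).

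**Figure D2:**
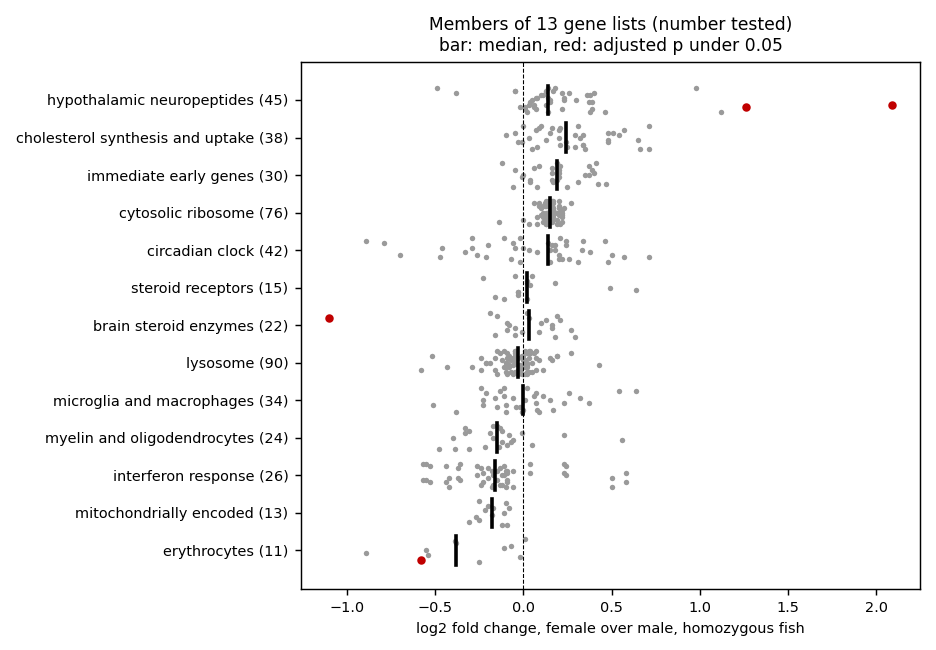
Log2 fold changes, female over male, of every tested member of 13 gene lists in homozygous fish; a bar is the list's median and red points are called genes. The peptide, cholesterol, immediate early and ribosome lists lie mostly right of 0, and the erythrocyte and mitochondrially encoded lists left of it.

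Of the other genes higher in females, sult6b1, a cytosolic sulfotransferase, had 17.7 to 29.5 CPM in females with a median of 24.1, against 12.3 to 18.7 CPM in males with a median of 14.4. It rose by 0.64 (SE 0.10, 1.56-fold, adjusted p = 0.0177), and 10 of the females lay above every male. The call was lost without male 3, 5 or 7 (adjusted p up to 0.0725). ccdc78, which in frog and mouse takes part in making many centrioles in ciliated cells, had 1.75 to 2.96 CPM in females, against 1.04 to 1.78 CPM in males. It rose by 0.66 (SE 0.12, adjusted p = 0.0342), with 11 of 12 females above every male, but it kept its call in only 8 of the 20 fits that left out 1 library. The 17 tested ependyma and choroid plexus genes had a median of 0.14 with 0 called.

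A pair of unnamed genes also rose. ENSDARG00000114451, to which the gene tables give no name, had 0.49 to 2.46 CPM in females and 0 to 0.275 CPM in males. That is 8 to 53 counts per female library and 0 to 10 per male library. It rose by 2.75 (SE 0.41, 6.73-fold, adjusted p = 0.0109), and all 20 fits that left out 1 library called it. si:ch211-224l10.5 had 1.02 to 2.51 CPM in females and 0.527 to 1.21 CPM in males, and rose by 1.08 (SE 0.18, adjusted p = 0.0178). It lost its call without male 3, 5 or 7.

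Of the genes lower in females, cdkn1a encodes p21, an inhibitor of cyclin-dependent kinases that p53 induces. It had 0.613 to 1.5 CPM in females with a median of 0.997, against 1.66 to 2.97 CPM in males with a median of 2.06. Every male lay above every female, after saline and after iron alike. cdkn1a fell by 1.09 (SE 0.18, 2.12-fold, adjusted p = 0.0178), and lost its call without male 5 or 7 (adjusted p up to 0.0778). The counts behind these levels were 12 to 34 per female library and 34 to 108 per male library.

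sp100.3, named after the human SP100 nuclear body protein, had 0.371 to 2.17 CPM in females with a median of 0.914, against 1.35 to 6.17 CPM in males with a median of 4.82. Only the lowest male, an iron fish, lay within the female range. It fell by 1.96 (SE 0.29, 3.90-fold, adjusted p = 0.0109), and lost its call without male 3 (adjusted p = 0.0725). In human cells SP100 is induced by interferon, and interferon response genes were measured beside it: 0 of 26 were called. The median of that list had no settled direction: it was -0.16 in all 20 libraries, 1.46 after saline and -0.83 after iron, 1.16 up to number 40 and -0.81 above, and 0.47 without the libraries high in photoreceptor genes. It was 0.62 with the clock component and 0.84 with the library total in the model. Male 6, with a summed level of 2090 CPM, stood apart from the other males, and it is among the libraries high in photoreceptor genes.

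nt5c2l1, a cytosolic 5'-nucleotidase on the erythrocyte list, had 7.51 to 16.6 CPM in females and 12.6 to 23.6 CPM in males, and the ranges overlap. It fell by 0.58 (SE 0.10, adjusted p = 0.0326), and kept its call in 13 of the 20 fits that left out 1 library. It was the 1 called gene of 11 on that list, whose median was -0.38 (-0.06 in fish numbered up to 40 and -0.45 above 40), with 0 genes higher and 6 lower at an unadjusted p under 0.05. The globin gene hbaa1 had a log2 fold change of -0.11 (SE 0.17), and cahz, the red cell carbonic anhydrase, of -0.07 (SE 0.08). The summed level of the list was 243 to 544 CPM in females and 282 to 488 CPM in males, and the part of blood in the result was not tested. si:dkey-1m11.6 had 16 to 31.9 CPM in females and 23.7 to 43.5 CPM in males, and fell by 0.59 (SE 0.11, adjusted p = 0.0342). A gene named from the same clone, si:dkey-1m11.5, was at -0.58 on the log2 scale (SE 0.12, adjusted p = 0.075), and reads may be shared between such neighbours.

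A growth gene and a thyroid gene came close to the threshold. igf1, insulin-like growth factor 1, had 5.16 to 15.3 CPM in females with a median of 7.68, against 9.18 to 18.6 CPM in males with a median of 14.3. Of the females 9 lay below every male. Its log2 fold change was -0.85 (SE 0.16, adjusted p = 0.0508). dio2, the deiodinase that makes active thyroid hormone, had 62.2 to 209 CPM in females with a median of 81.4, against 114 to 276 CPM in males with a median of 200. Its log2 fold change was -1.1 (SE 0.21, adjusted p = 0.0594), while dio3b, which inactivates the hormone, had 0.30 (SE 0.10, adjusted p = 0.305). Of 24 tested growth hormone and IGF genes and 10 tested thyroid genes 0 were called, and the list medians were -0.02 and 0.07.

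Several broad lists lay mostly on one side of 0, with 0 genes called in each. Of 38 cholesterol synthesis and uptake genes 34 had log2 fold changes above 0, with a median of 0.24, and 17 were higher and 0 lower at an unadjusted p under 0.05, where 4.90% and 4.56% of all genes were. The 17 became 8 without the libraries high in photoreceptor genes, and 8 and 6 in saline and iron fish alone. In fish numbered up to 40 they became 2, and above 40 they became 16. hmgcs1, an early enzyme of the pathway, had 48.9 to 206 CPM in females and 31.0 to 93.5 CPM in males (0.71, SE 0.24, adjusted p = 0.343). lss, which closes the sterol rings, had 0.65 (SE 0.17, adjusted p = 0.181). Of 30 immediate early genes 25 were above 0, with a median of 0.19 and 13 higher and 0 lower at the unadjusted threshold. The 13 became 2 in fish numbered up to 40 and 10 above 40. fosb and nr4a3, transcription factors that neurons switch on with activity, had 0.39 (SE 0.10) and 0.37 (SE 0.09). The median of the immediate early list was 0.03 after saline, with 2 genes higher and 2 lower before adjustment. After iron it was 0.36, with 19 higher and 0 lower. The test of the sex difference after iron minus after saline called 0 of the 30 genes, with a median of 0.27. Before adjustment it had 9 higher and 1 lower, where 0.914% and 2.61% of all genes were.

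Of 76 tested ribosomal protein genes 74 were above 0, with a median of 0.15 (0.07 up to number 40 and 0.20 above). At the unadjusted threshold 33 were higher and 1 lower. In fish numbered up to 40 alone 0 were higher and 0 lower, and above 40 alone 57 were higher and 1 lower. All 13 mitochondrially encoded genes were below 0, with a median of -0.18, which was -0.38 in fish numbered up to 40 and -0.04 above 40. mt-co1, a subunit of cytochrome oxidase, had 31400 to 52300 CPM in females and 44000 to 71200 CPM in males. Myelin genes had a median of -0.15 with 2 higher and 7 lower at the unadjusted threshold. The microglia list had a median of 0.00 and the 90 tested lysosome genes one of -0.03, each with 0 called.

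Clock genes, which ran with the fish number, and depth were uneven between the sexes. Clock genes follow time of day, and their first component carried 69.1% of the variance of 42 clock genes in the 20 libraries. It ran from 7.21 in the lowest-numbered fish to -10.2 in the highest. Above number 40 females had -5.1 to 1.37 and males -10.2 to -4.33. Up to 40 females had 3.17 to 7.21 and males 3.08 to 5.29. The females above 40 were numbered 43 to 77 and the males 55 to 95, so sex and fish number are not separated there. The neighbours female 11, number 54, and male 4, number 55, had -3.81 and -4.33. The main model held only the split at 40. On the clock list 15 genes were higher and 10 lower in females at the unadjusted threshold, with 0 called. With the component in the model the clock list had 0 higher and 1 lower. That fall is no test, because the component was built from these same 42 genes. Over all genes 7 were called, 4 of them among the 12: hsd17b3, ENSDARG00000114451, sult6b1 and si:dkey-1m11.6. The peptide list had a median of 0.16 and the cholesterol list one of 0.25 in that fit, where 7 cholesterol genes were higher at the unadjusted threshold. With the log2 library total in the model 4 genes were called, hsd17b3 and ENSDARG00000114451 among them.

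**Figure D3:**
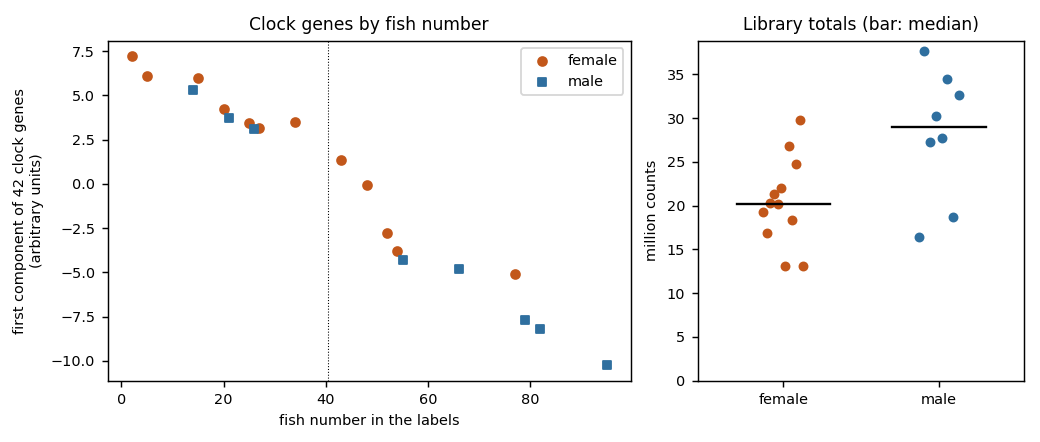
Left, the first component of 42 clock genes against the fish number in the labels, for homozygous females (circles) and males (squares), with a dotted line at 40. Right, library totals by sex, with bars at the medians, which are higher in males. Above number 40 the females lie higher on the clock component than the males, with ranges that overlap. The females there mostly have lower fish numbers.

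Without the 6 libraries high in photoreceptor genes 3 genes were called, 0 of them among the 12, and all 12 kept their direction. hsd17b3 then had -0.94 (adjusted p = 0.192) and kiss2 1.22 (adjusted p = 0.0801). In fish numbered above 40 alone 20 genes were called, 5 of them among the 12. In fish numbered up to 40 alone 1 was called, and the 12 had log2 fold changes of the same direction.

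Whether the sex difference depends on the mutation was tested against the heterozygous siblings. In heterozygous fish, fitted apart, 352 genes rose in females and 44 fell, 2.03% of 19519 tested (1.8% higher and 0.225% lower), and without heterozygous female 3 and male 8 201 rose and 12 fell. Without heterozygous female 5, 197 rose and 15 fell. Of the 396 genes called with all heterozygous libraries 385 were tested in homozygous fish. There 3 were called too: ENSDARG00000114451, nmu and sult6b1. That is 0.758% of the heterozygous list and 25.0% of the homozygous one. By direction alone, 322 of the 385 (83.6%) went the same way in homozygous fish, against 59.4% of all genes tested in both. Of the 12 genes called in homozygous fish 10 had the same direction in heterozygous fish, against 59.4% of all genes tested in both. Without heterozygous female 5 it was 11 of 12, against 60.8% of all genes, with nt5c2l1 at -0.26. The genes called in both were then hsd17b3, ENSDARG00000114451 and nmu. That library was singled out by its values in these same 12 genes, so the values without it are no separate support for them. sult6b1 had nearly the same log2 fold change, 0.64 in homozygous and 0.67 in heterozygous fish, and so did ENSDARG00000114451, with 2.75 and 2.96. hsd17b3 had -1.1 in homozygous and -0.89 in heterozygous fish, where it was not called (adjusted p = 0.0912). Without heterozygous female 5 it was called there (-1.30, adjusted p = 0.0181), and sult6b1 was not (0.63, adjusted p = 0.0884). kiss2 had 1.26 in homozygous and 0.38 in heterozygous fish, and agrp 2.09 and 1.23 (0.44 and 1.56 without heterozygous female 5). Neither of these genotype differences passed (kiss2 adjusted p = 0.586, agrp adjusted p = 0.706).

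A few large differences of heterozygous fish had the same direction in homozygous fish without passing, and in the 3 named here heterozygous female 5 lay below the other heterozygous females. f13a1 ENSDARG00000045453, the coagulation factor XIII transglutaminase, had 3.3 to 114 CPM in homozygous females. In homozygous males it had 2.17 to 8.17 CPM, below 11 of 12 females, all but female 2. Its log2 fold change was 2.41 (SE 0.47, adjusted p = 0.0663), against 3.02 (SE 0.46, adjusted p = 0.00411) in heterozygous fish. pcyt1bb, an enzyme of phosphatidylcholine synthesis, had 2.40 (SE 0.60, adjusted p = 0.172) in homozygous and 2.64 (adjusted p = 0.016) in heterozygous fish. mb, myoglobin, had 1.24 (SE 0.34, adjusted p = 0.211) in homozygous and 1.76 (adjusted p = 0.0233) in heterozygous fish. Without heterozygous female 5 the heterozygous values of f13a1 ENSDARG00000045453, pcyt1bb and mb were 3.34, 2.93 and 1.94. Of the ribosomal protein genes 0 of 76 were called in homozygous fish and 71 in heterozygous fish, with medians of 0.15 and 0.35. The difference of that list between the genotypes, homozygous minus heterozygous, had a median of -0.20 with 0 genes called. Before adjustment 0 of its genes were higher and 39 lower, where 3.22% and 5.18% of all genes were. Without heterozygous female 5 the heterozygous count was 63, the median difference -0.19 and the genes lower before adjustment 25. The peptide, immediate early and cholesterol lists had heterozygous medians of -0.01, 0.00 and 0.07, against 0.14, 0.19 and 0.24 in homozygous fish. The test of the difference between genotypes called 0 genes in each of these lists. Before adjustment it had 5 higher and 0 lower of 46 peptide genes and 3 higher and 2 lower of 30 immediate early genes. Of 38 cholesterol genes 0 were higher and 0 lower. The erythrocyte list had a heterozygous median of 0.33, against -0.38 in homozygous fish. Before adjustment 9 of its 11 genes had a lower sex difference in homozygous fish, with 0 called. Of 26 interferon response genes 15 were called higher in heterozygous females, where 1.8% of all genes were, against 0 in homozygous ones. The test of the difference between genotypes called 0 of them, with a median of -1.68 and 16 lower before adjustment. As given above, the homozygous median of this list had no settled direction.

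**Figure D4:**
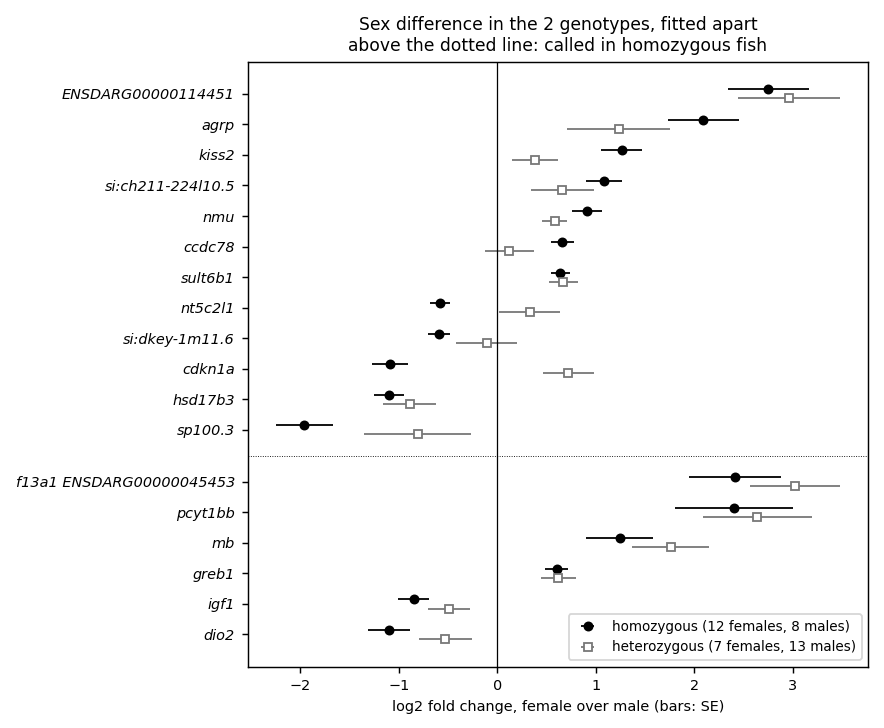
Log2 fold change, female over male, with its standard error in homozygous fish (filled circles, 12 females and 8 males) and heterozygous fish (open squares, 7 females and 13 males). The genes above the dotted line are the 12 called in homozygous fish, of which cdkn1a and nt5c2l1 lie on the other side of 0 in heterozygous fish (nt5c2l1 does not without heterozygous female 5); those below it came close to the threshold or were called in heterozygous fish.

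cdkn1a was the 1 gene of 19905, or 0.00502%, whose sex difference itself differed between the genotypes. Before adjustment 640 genes had a higher and 1031 a lower difference with a p under 0.05, 8.39% of those tested (3.22% and 5.18%). cdkn1a had 0.613 to 1.5 CPM in homozygous females and 1.66 to 2.97 CPM in homozygous males. Heterozygous females had 0.787 to 3.5 CPM and heterozygous males 0.438 to 1.3 CPM. The 8 homozygous males thus lay above all 12 homozygous females, all 13 heterozygous males and 6 of 7 heterozygous females. The log2 sex difference, homozygous minus heterozygous, was -1.80 (SE 0.32, adjusted p = 0.0371). In heterozygous fish alone the log2 fold change was 0.72 (SE 0.26, adjusted p = 0.15). The heterozygous female at 3.5 CPM was female 5, which lay above every male of both genotypes. Without it the heterozygous log2 fold change was 0.23 (SE 0.21, adjusted p = 0.656) and the difference between genotypes -1.30 (SE 0.27, adjusted p = 0.388). Without the libraries high in photoreceptor genes the difference was -1.15 (SE 0.31, adjusted p = 0.942). The call was also lost without the doubted libraries heterozygous female 3 and heterozygous male 8 together (-1.83, adjusted p = 0.0814), and it held in 15 of 40 fits that left out 1 library.

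Whether iron changed the sex difference was tested within homozygous fish. 0 of 18919 genes, or 0.0%, passed the test of the sex difference after iron minus after saline, by edgeR, DESeq2 or limma voom. Before adjustment 173 genes were higher and 493 lower with a p under 0.05, 3.52% of those tested, by edgeR, and 720 and 554 genes in all by DESeq2 and limma voom. The smallest p-values were those of gsap (-1.21, SE 0.26) and chad (-1.19, SE 0.26), both with an adjusted p = 0.967, followed by btg2 (0.81, SE 0.18), sall3 (-0.77, SE 0.17) and arhgap15 (-1.62, SE 0.37).

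Microglia are the macrophages of the brain, and 22 of 34 tested microglia and macrophage genes were lower at the unadjusted threshold, where 2.61% of all genes were. Their median difference was -1.23. After saline the summed level of the list was 1380 to 2990 CPM in females and 1260 to 1380 CPM in males. After iron it was 1050 to 1880 CPM in females and 982 to 2710 CPM in males. The female median was thus above the male one after saline (2240 and 1310 CPM) and below it after iron (1290 and 1900 CPM), with overlap after iron. After saline there were 3 males, numbered 26, 66 and 82, and the ranges of the sexes met at 1380 CPM. Saline females numbered 2 to 27 had 2240 to 2990 CPM, and those numbered 34, 43 and 52 had 1380 to 1560 CPM. The summed levels are not adjusted for fish number, and its part in this contrast was not tested. spi1a, the myeloid transcription factor, had a log2 fold change of 0.63 after saline and -0.32 after iron, and the difference had an adjusted p = 1.0. mpeg1 ENSDARG00000055290, a macrophage pore protein, had 0.62 and -0.76. The list median ran from -1.44 to -0.95 when 1 library was left out. Interferon response genes had a median difference of -2.89. It was -1.01 without male 6, whose summed level of 2090 CPM was the highest of all 20. It was -1.07 without the libraries high in photoreceptor genes, and male 6 is among those, so these are not separate checks.

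**Figure D5:**
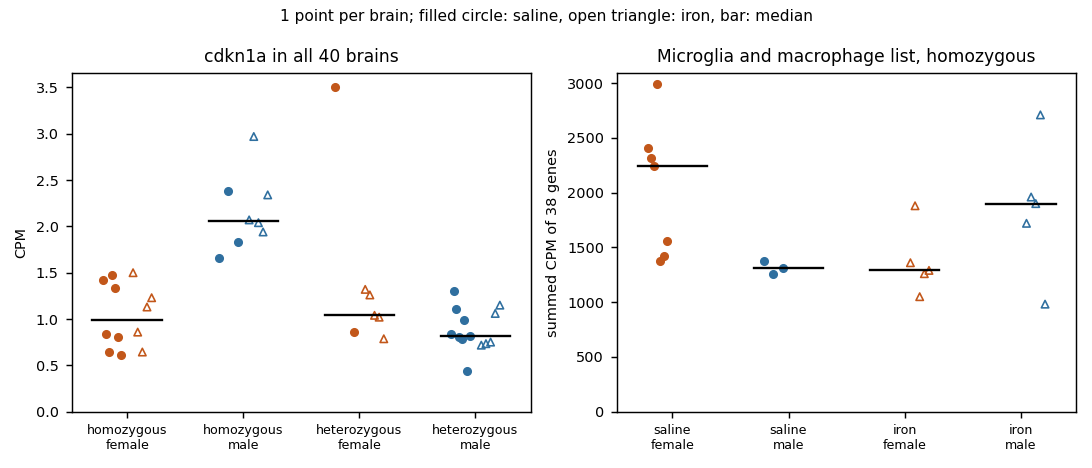
Left, cdkn1a in CPM in all 40 brains by genotype and sex. Right, summed CPM of the 38 microglia and macrophage genes in homozygous fish by treatment and sex; circles are saline fish, triangles iron fish and bars medians, and the homozygous males lie above all but heterozygous female 5 for cdkn1a.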

How the data were processed

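The authors deposited 1 table of raw counts, with 32057 Ensembl genes and 40 libraries. The submitters' processing notes name fastp, STAR, UMI-tools, featureCounts and GRCz11. No source used here gives their versions, settings, use of strand or gene models, so antisense and overlapping genes, and near-identical paralogs, cannot be told apart. Symbols came from a gene name table, which covered 90.4% of IDs. An ID follows a symbol that several genes share. Of 1386 gene list entries 97 were unmatched.

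Counts were tested in R 4.3.3 with edgeR 4.0.16: genes kept by filterByExpr, TMM scaling, a robust quasi-likelihood fit of sex, treatment and fish number above 40 or not, and Benjamini-Hochberg adjustment over all genes tested. SE is the log2 fold change divided by the root of F. Log2 CPM, used for the naming rule and scores, has a prior count of 2. The steps were tested on simulated data. The genotype difference used all 40 libraries and the treatment difference the 20 homozygous ones. Over 190 pairs of homozygous libraries 0 were identical. Replicate numbers only name libraries.

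By rule the text names called genes that have a gene name and average 1 log2 CPM or more (at most 12 each way), called members of lists, naglu, sex steroid receptors and aromatase, and the leading interaction genes. ENSDARG00000114451, sp100.3, ccdc78, si:ch211-224l10.5, si:dkey-1m11.6, acss3, pdp1, igf1, dio2, greb1, oxt, f13a1, pcyt1bb, mb, and other uncalled list members were chosen after their values were seen. Members and lists were chosen with earlier results of these data known.

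Alternatives covered DESeq2 1.42.0, limma 3.58.1 voom, sva 3.50.0, other size factors, filters and covariates, and fewer libraries. Values of heterozygous female 5 were examined, and the clock component and the library total added, after seeing the data.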

Additional observations from a re-analysis of the deposited data

Results flagged for a closer look

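The sex difference of cdkn1a differed between the genotypes by a test of the difference itself, with -1.80 on the log2 scale for homozygous minus heterozygous fish (edgeR adjusted p = 0.0371). The call held in 15 of 40 fits that left out 1 library. The value was -1.15 (adjusted p = 0.942) without the libraries high in photoreceptor genes. It was -1.30 (adjusted p = 0.388) without heterozygous female 5, which had 3.5 CPM against 0.787 to 1.32 CPM in the other heterozygous females. Among the 8 homozygous males 2 libraries stood far from the rest in a named gene. oxt had a log2 CPM of 5.08 in male 4, where the next lowest male had 7.18. igf1 had 3.21 in male 8, where the next lowest had 3.75. The 8 males were examined for 25 genes, and chance flags about 1 in 20 groups.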

How the results depend on the processing

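The 12 genes called between homozygous females and males kept their direction in every alternative that could fit them. The count was 118 with DESeq2 and 20 with limma voom. It was 30 with fish number as a linear term, 34 with home tank added (31 higher and 3 lower), 23 with sex alone and 2 with all 40 libraries in 1 fit. Of the 12 genes these fits called 12, 8, 9 and 2, in that order. The count was 3 without the libraries high in photoreceptor genes, 0 in saline libraries alone, 0 in iron libraries alone, 1 in fish numbers up to 40 and 20 above 40. Before adjustment 1255 genes in saline and 1364 in iron libraries had a p under 0.05. The clock component gave 7 and the log2 library total 4, both chosen after seeing the data. Leaving out 1 library gave 3 to 39.

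The 1 gene whose sex difference differed between genotypes was lost (0 called) with limma voom, with home tank added, without the libraries high in photoreceptor genes, and without heterozygous fish 39 and 41. Leaving out 1 library gave 0 to 1. The test of iron minus saline gave 0 in each alternative. The 396 genes called in heterozygous fish became 818 with DESeq2, 258 without the fish-number term, 181 without the libraries high in photoreceptor genes, 0 with 1 surrogate variable, 0 in saline and 7 in iron libraries, 0 in fish numbers up to 40, 0 above 40 and 213 without fish 39 and 41. Leaving out 1 library gave 173 to 609. The cause of these shifts was not tested.

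Only uncalled genes changed direction. cyp19a1 had -0.01 and esr1 -0.04 in fish numbers up to 40. esr2 ENSDARG00000016454 had 0.01 with limma voom, 0.04 in iron libraries and 0.00 above 40. esr2 ENSDARG00000034181 had 0.01 without the fish-number term, 0.01 with sex alone, 0.02 in saline libraries and 0.06 up to 40. ar had -0.01 with a linear fish number, -0.06 with home tank, -0.06 without photoreceptor-high libraries, -0.09 in saline libraries, and -0.01 with the clock component or the library total. naglu had -0.02 with a linear fish number, -0.01 in saline libraries and -0.09 above 40. With 1 library left out these ran from -0.10 to 0.04 and -0.10 to 0.01 for the esr2 genes in that order, -0.02 to 0.06 for ar and 0.00 to 0.10 for naglu.

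Replicate numbers only name libraries in accession order, so they gave no pairs. Home tank entered only as an added term among the alternatives. Levels near 1 CPM rest on few counts.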

Other observations

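A few further lists lay mostly above 0 in homozygous females. Of 25 tested fibroblast and meninges genes 21 had log2 fold changes above 0, with a median of 0.10, and of 11 keratinocyte and epithelium genes 9 had, with a median of 0.24. The skin keratin krt5 had 3.97 to 127 CPM in females with a median of 7.13, against 3.93 to 10.8 CPM in males with a median of 5.94. The 50 tested proliferation genes had a median of 0.07, with 36 above 0. None of these lists held a called gene. plau, the urokinase plasminogen activator, had 0.62 to 4.99 CPM in females and 2.76 to 10.5 CPM in males, and -1.13 on the log2 scale (SE 0.28, adjusted p = 0.17). tfr1a, the transferrin receptor of red cell precursors in zebrafish, had 2.39 to 10.6 CPM in females and 4.56 to 12.3 CPM in males, with -0.89 (SE 0.20, adjusted p = 0.118).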
